A study of Mus musculus with 2 samples.

Results

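The genes described are 9 CC chemokine genes expressed by myeloid and lymphoid cells of the mouse liver: Ccl2, Ccl7, Ccl3, Ccl4, Ccl5, Ccl6, Ccl9, Ccl22 and Ccl24. They were found by exact gene symbol among the 27998 genes of the deposited feature lists, and all 9 had at least 1 UMI (unique molecular identifier, 1 per captured transcript) in each library. The values come from droplet single-cell RNA sequencing of the non-parenchymal cells of the liver, which are its immune, endothelial and stromal cells rather than its hepatocytes. One library was made from PKM2ΔMAC mice (ΔMAC below) and 1 from PKM2FL/FL mice (FL/FL below), and both genotypes had been kept on an MCD diet for 8 weeks, so no group on a control diet enters any comparison. In liver research MCD commonly stands for methionine- and choline-deficient, a diet used to cause fatty and inflamed liver. Floxed Pkm alleles are named by the FL/FL genotype, and ΔMAC by its name marks their deletion in macrophages. Neither the Cre driver nor the number of mice behind each library is stated in the sources used here.

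CC chemokines are small secreted proteins, named for the adjacent cysteines near their start, that bind to G protein-coupled receptors and draw leukocytes along a gradient. Ccl2 and Ccl7 act on Ccr2 of monocytes, Ccl3, Ccl4 and Ccl5 draw T cells, NK cells and macrophages, and Ccl3, Ccl5, Ccl6 and Ccl9 act on Ccr1. Ccl22 acts on Ccr4 of regulatory and type 2 helper T cells, and Ccl24 acts on Ccr3 of eosinophils. In the inflamed liver, resident macrophages (Kupffer cells) and recruited monocytes are known sources of Ccl2, which brings in further monocytes, and NK and T cells are known sources of Ccl3, Ccl4 and Ccl5. Of the 9 genes, 7 lie on chromosome 11 of mm10. Ccl2 and Ccl7 are neighbours within 11955 bases, and Ccl5, Ccl9, Ccl6, Ccl3 and Ccl4 lie together within 138906 bases. In mm10 they run from chr11:82035571-82037453 (Ccl2) and chr11:82045712-82047525 (Ccl7), on the plus strand, through chr11:83525778-83530518 (Ccl5), chr11:83572919-83578636 (Ccl9), chr11:83587882-83593087 (Ccl6) and chr11:83647844-83649355 (Ccl3), on the minus strand, to chr11:83662584-83664683 (Ccl4), on the plus strand. Ccl24 lies at chr5:135569937-135573049 on the minus strand and Ccl22 at chr8:94745590-94751699 on the plus strand. UMIs were counted over whole genes, so no exon or UTR is told apart.

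After filtering and removal of doublet calls, 8547 ΔMAC and 9529 FL/FL cells remained, with 40418098 and 50042627 UMIs. Cells were placed in classes by 6 marker genes per class, and the classes are called "-like" because they rest on those markers alone. Classes were compared where both libraries held 50 cells or more, which left 9: B, T, NK or innate lymphoid cell (ILC), neutrophil, classical monocyte, Kupffer, Cd209a-positive conventional dendritic cell (cDC2), plasmacytoid dendritic cell (pDC) and endothelial. In 8 of them every marker found in the files was highest in its own class, and in cDC2-like cells 5 of 6 were. The 105 ΔMAC and 107 FL/FL Kupffer-like cells had medians of only 1067 and 1070 UMIs, against library medians of 3719 and 4392 UMIs among the kept cells. The gate for lipid-associated macrophages held 19 ΔMAC and 67 FL/FL cells whose leading genes included the hepatocyte genes Fgg, Serpina1c and Crp, so it is named only by 2 of its 6 markers, as the Gpnmb and Trem2 gate. The other 4 were Mmp12, Mmp14, Gdf15 and Fabp5, and 3 of the 6 were highest in this gate; Trem2 was not, at 170 CPM against 176 CPM in Kupffer-like cells, and the ΔMAC cells held only 13 Gpnmb and 16 Trem2 UMIs. Pkm, the targeted gene, had a ratio of ΔMAC over FL/FL below 1 in all 9 classes. It ran from 0.416 (0.234 to 0.716) in Kupffer-like cells, on 21 and 43 UMIs, to 0.866 (0.573 to 1.30) in endothelial-like cells. The endothelial-like interval included 1, and a 3' tag does not check the deletion of an internal exon. With 1 library per genotype there was no test between genotypes, and no p-value is given. Levels are CPM (UMIs of a gene scaled to 1000000 UMIs of the class in that library), ratios are ΔMAC over FL/FL, and all intervals are exact 95% intervals (Poisson for levels, Clopper-Pearson for shares of cells, conditional binomial for ratios) that cover counting error only.

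Each gene had its own pattern over the liver's leukocytes. Among the compared classes, over both libraries, Ccl5 was highest in NK or ILC-like cells, Ccl3 and Ccl4 in pDC-like cells, Ccl6 in neutrophil-like cells, Ccl2 and Ccl9 in classical monocyte-like cells and Ccl24 in Kupffer-like cells. Within 1 library this order differed for Ccl3, at 488 CPM in pDC-like and 492 CPM in NK or ILC-like cells of FL/FL, and for Ccl2, at 174 CPM in classical monocyte-like and 184 CPM in Kupffer-like cells of ΔMAC. Ccl22 was low in all of them and highest in the smaller class of mature dendritic-like cells. The few non-classical monocyte-like cells also had Ccl22, at 97.5 CPM in 15 ΔMAC cells and 281 CPM in 20 FL/FL cells. In FL/FL 1 of them held 33 of the 37 UMIs. Basophil or mast-like cells, 20 in ΔMAC and 31 in FL/FL, carried more Ccl3 and Ccl4 per UMI than any other gated class in either library. Ccl7 was near the limit of detection, with 37 UMIs in the whole ΔMAC library and 4 in the FL/FL library.

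**Figure D1:**
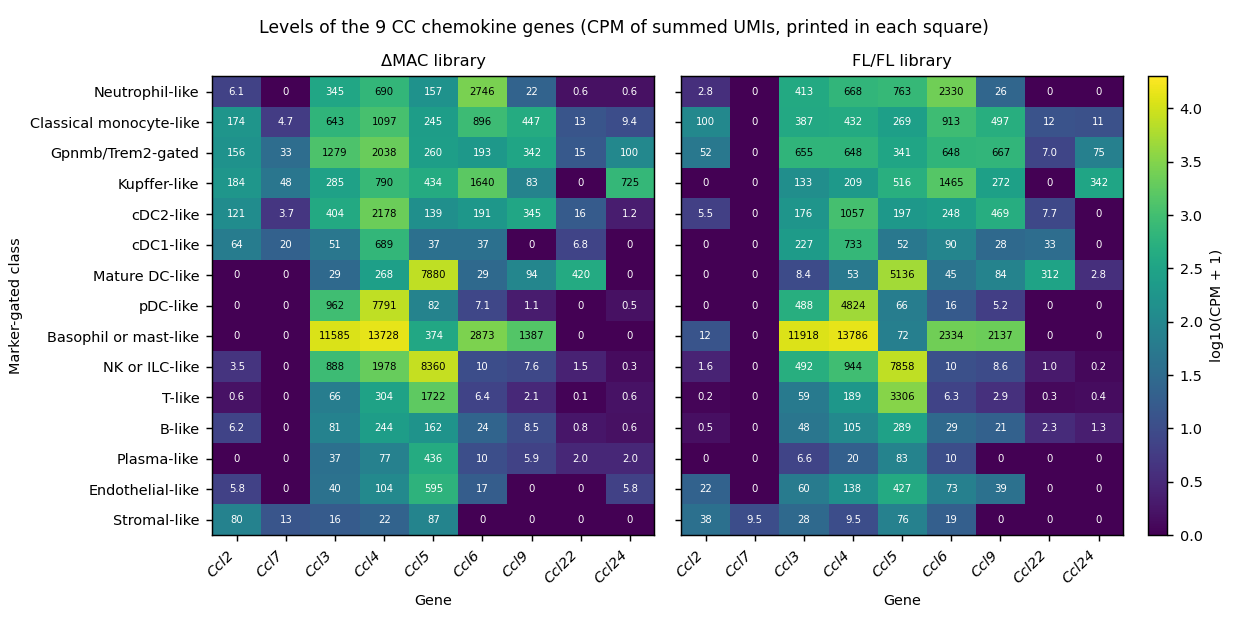
Levels of the 9 genes by marker-gated class (rows) in the ΔMAC library (left) and the FL/FL library (right); colour is log10(CPM + 1) and the printed number is the CPM. Ccl5 fills the NK or ILC-like row at 8359.7 and 7858 CPM, and Ccl3 and Ccl4 peak in the basophil or mast-like row, at 11585 to 13786 CPM.

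Across the 9 compared classes, 54 pairs of a member and a class had at least 20 UMIs over both libraries. Of these, 13 (24.1%) were at least 2-fold higher in ΔMAC, where 1.98% of all gene and class pairs were, and 6 (11.1%) were at least 2-fold lower, where 4.45% of all pairs were. The median log2 ratio of the 54 pairs was 0.10, against -0.10 for all 69274 pairs. The 13 higher pairs were 5 of Ccl4, 4 of Ccl2, 2 of Ccl3 and 1 each of Ccl22 and Ccl24. The 6 lower pairs were 2 each of Ccl6 and Ccl9 and 1 each of Ccl5 and Ccl22. By class, the share of genes at least 2-fold higher was 1.68% in B-like, 1.36% in NK or ILC-like, 1.81% in classical monocyte-like, 5.38% in Kupffer-like and 2.82% in cDC2-like cells. The share at least 2-fold lower was 3.04% in B-like, 11.2% in neutrophil-like, 6% in Kupffer-like, 3.56% in pDC-like and 4.38% in endothelial-like cells. The counting interval lay above 1 in 11 of the 13 and below 1 in all 6. The 2 others were Ccl2 in Kupffer-like cells, which had no FL/FL UMI, and Ccl22 in cDC2-like cells, with 13 ΔMAC UMIs and 7 FL/FL UMIs. All pairs compare the same 2 libraries, so their number is not a number of independent observations.

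**Figure D2:**
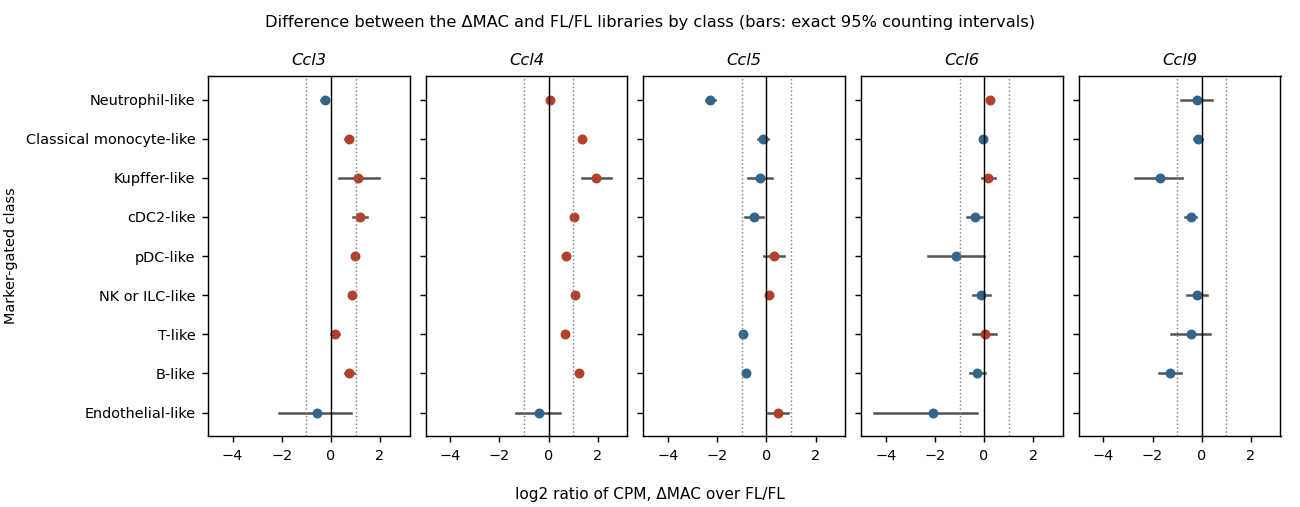
Log2 ratio of the ΔMAC over the FL/FL library (x axis) for 5 genes in each compared class with at least 20 UMIs (rows); points are the ratio of CPM, bars its exact 95% counting interval, and dotted lines mark 2-fold. Ccl4 lies right of 0 in 8 of 9 classes and Ccl9 left of 0 in all 7 classes shown, while the neutrophil-like point of Ccl5 stands farthest left among the points of Ccl5.

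Ccl4 (MIP-1β), an attractant of T cells, NK cells and macrophages, had a ratio above 1 in 8 of the 9 classes. The neutrophil-like log2 ratio was only 0.05 and changed sign in 7 of 11 settings, so no direction is given for that class. When the B-like level was subtracted, the T-like and neutrophil-like log2 ratios were -0.51 and -0.34. In NK or ILC-like cells the Ccl4 level was 1978 CPM in 2125 ΔMAC cells and 944 CPM in 2807 FL/FL cells, a ratio of 2.09 (2.05 to 2.14). Classical monocyte-like cells had 1097 CPM in ΔMAC and 432 CPM in FL/FL (ratio 2.54, interval 2.33 to 2.76), and cDC2-like cells had 2178 CPM in ΔMAC and 1057 CPM in FL/FL (2.06, 1.90 to 2.23), the last at a log2 ratio of 0.83, under 2-fold, after thinning each cell to 500 UMIs. The monocyte-like interval lay above those of the other 2 classes. In Kupffer-like cells the level was 790.1 CPM in ΔMAC, from 133 UMIs, and 209 CPM in FL/FL, from 30 UMIs, a ratio of 3.78 (2.53 to 5.82), in a class where 5.38% of genes were at least 2-fold higher. The 5 highest ΔMAC cells held 62.4% of those 133 UMIs, and the shares of cells with a UMI were close, at 25.7% (17.7 to 35.2) in ΔMAC and 21.5% (14.1 to 30.5) in FL/FL. The Kupffer-like ratio therefore rests on UMIs in few cells, and its log2 value was 1.81 without the highest cell of each library. Neutrophil-like cells as a whole had 689.6 CPM in ΔMAC and 668 CPM in FL/FL (1.03, 0.953 to 1.12). The part of them without Irg1 and Slc7a11, 96 ΔMAC and 52 FL/FL cells, had 679 CPM in ΔMAC, from 141 UMIs, and 237 CPM in FL/FL, from 25 UMIs (2.86, 1.86 to 4.57), where 3.49% of genes were at least 2-fold higher, and 5 cells held 82.3% of those 141 UMIs. Endothelial-like cells had 18 ΔMAC and 32 FL/FL UMIs, 29 of the 32 in 1 cell (0.753, 0.398 to 1.38).

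pDC-like cells, the interferon-producing dendritic cells marked here by Siglech, had the highest Ccl4 level of the compared classes, at 7791 CPM in 241 ΔMAC cells and 4824 CPM in 138 FL/FL cells (ratio 1.62, 1.57 to 1.67). Ccl4 was detected in 88.0% (83.2 to 91.8) of ΔMAC and 87.7% (81.0 to 92.7) of FL/FL pDC-like cells. After each cell was thinned to 500 UMIs, the shares were 69.3% in ΔMAC and 65.9% in FL/FL. So the pDC-like difference was one of UMIs per cell more than of the share of cells, with 67.2 UMIs per detecting cell in ΔMAC and 46.3 in FL/FL. In NK or ILC-like cells the share itself differed, at 72.0% (70.1 to 73.9) in ΔMAC and 54.6% (52.7 to 56.5) in FL/FL, and at 37.5% and 22.3% after thinning. Beside this, 14.4% (13 to 15.8) of ΔMAC and 10.2% (8.99 to 11.6) of FL/FL B-like cells had a Ccl4 UMI, at median depths of 2730 and 3167 UMIs, and 3.88% and 1.68% did after thinning. The 5 highest B-like cells held 62.8% of the class's Ccl4 UMIs in ΔMAC and 48.0% in FL/FL. So the B-like level of 244 CPM in ΔMAC and 105 CPM in FL/FL (2.33, 2.14 to 2.54) is set by few cells. Without the highest cell of each library its log2 ratio was 0.98, under 2-fold. Markers of pDC had a summed 56.8 CPM in ΔMAC and 28.5 CPM in FL/FL B-like cells, 5 of 6 higher in ΔMAC. The summed NK, T, neutrophil and classical monocyte markers were lower in ΔMAC B-like cells. The part of such markers in the B-like Ccl4 difference was not tested.

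Within the lymphoid classes the Ccl4 difference recurred in each NK or ILC subclass. NK-like cells with S1pr5 or Cma1, genes of mature circulating NK cells, had 3028 CPM in ΔMAC and 1462 CPM in FL/FL (2.07), ILC1-like cells with Kit had 1111 CPM in ΔMAC and 499 CPM in FL/FL (2.23), and those with Cited4 had 1933 CPM in ΔMAC and 908 CPM in FL/FL (2.13). The lowest interval bound of these 3 ratios was 1.99. Among T-like cells the levels spread further. CD8 T-like cells without naive genes such as Lef1, Dapl1 and Ccr7 had 2604 CPM in 93 ΔMAC cells and 827 CPM in 174 FL/FL cells (3.15, 2.86 to 3.47), and NKT-like T cells had 386 CPM in ΔMAC and 84.7 CPM in FL/FL (4.56, 3.71 to 5.62). In NKT-like T cells 5 cells held 75.8% of the 252 ΔMAC UMIs. T-like cells of no named subclass had 203 CPM in 333 ΔMAC cells and 218 CPM in 559 FL/FL cells (0.931, 0.811 to 1.07). Gamma-delta 17 T-like cells were low in both libraries, at 34.3 CPM in ΔMAC and 30.5 CPM in FL/FL. Over the 18 finest classes of sufficient size, Ccl4 was at least 2-fold higher in 11 and at least 2-fold lower in 0, where 1.97% of all gene and class pairs were higher and 4.27% lower; no test stands behind either count, so neither an unadjusted p nor another tool applies.

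Ccl3 (MIP-1α), which acts on Ccr1, was spread like Ccl4. NK or ILC-like cells held 10432 of the 17839 Ccl3 UMIs of the ΔMAC library and 8123 of the 15152 of the FL/FL library, at 888 CPM in ΔMAC and 492 CPM in FL/FL (1.80, 1.75 to 1.86). pDC-like cells had 962 CPM in ΔMAC and 488 CPM in FL/FL (1.97, 1.79 to 2.17), and classical monocyte-like cells 643 CPM in ΔMAC and 387 CPM in FL/FL (1.66, 1.51 to 1.83). Ccl3 was at least 2-fold higher in ΔMAC in cDC2-like cells (404 CPM in ΔMAC, 176 CPM in FL/FL, ratio 2.29) and in Kupffer-like cells (48 ΔMAC UMIs, 19 FL/FL UMIs, ratio 2.15, 1.24 to 3.88); the first had a log2 ratio of 0.74 after thinning and the second 0.51 when cells passing 2 classes were left out, both under 2-fold. Neutrophil-like cells as a whole went the other way, with 345 CPM in ΔMAC and 413 CPM in FL/FL (0.834, upper bound 0.93), but those without Irg1 and Slc7a11 had 54 ΔMAC and 6 FL/FL UMIs, at 260 CPM and 57.0 CPM (4.56, lower bound 1.97). Relative to the median gene of neutrophil-like cells, whose log2 ratio was -0.35, their Ccl3 log2 ratio of -0.26 became 0.08.

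Basophil or mast-like cells, marked by Mcpt8 and Fcer1a, are granulocytes known for rapid release of cytokines. Although few, 20 of 8547 ΔMAC cells and 31 of 9529 FL/FL cells, they held 7.12% of the ΔMAC and 13.2% of the FL/FL library's Ccl3 UMIs. Their Ccl3 level was 11585 CPM in ΔMAC and 11918 CPM in FL/FL, and their Ccl4 level was 13728 CPM in ΔMAC and 13786 CPM in FL/FL. The intervals of both genes overlapped between the libraries. The 5 highest cells held 57.7% of the class's Ccl3 UMIs in ΔMAC and 40.0% in FL/FL.

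The balance of Ccl4 to Ccl3 differed between classes and, in several, between libraries. pDC-like cells carried 8.10 Ccl4 UMIs per Ccl3 UMI in ΔMAC (7.70 to 8.51) and 9.88 in FL/FL (9.06 to 10.8), and cDC2-like cells carried 5.40 in ΔMAC and 6 in FL/FL. NK or ILC-like cells carried 2.23 in ΔMAC (2.18 to 2.28) and 1.92 in FL/FL (1.87 to 1.97). Basophil or mast-like cells were near parity at 1.19 in ΔMAC and 1.16 in FL/FL. Classical monocyte-like cells carried 1.71 in ΔMAC (1.56 to 1.86) and 1.12 in FL/FL (1.02 to 1.23), and their intervals did not overlap. Nor did those of T-like cells, at 4.59 in ΔMAC and 3.21 in FL/FL, of B-like cells, at 3.02 in ΔMAC and 2.17 in FL/FL, or of the few cDC1-like cells, at 13.6 in ΔMAC (8.05 to 24.7) and 3.23 in FL/FL (2.32 to 4.56). The cDC1-like difference rests on 1 FL/FL cell, which held 43 of the 48 Ccl3 UMIs there. In B-like cells the 5 highest cells held 62.8% of Ccl4 and 58.8% of Ccl3 UMIs in ΔMAC. They held 48.0% and 56.6% in FL/FL, and the intervals take no account of UMIs sharing a cell. Both genes are counted by 3' tags, so this is a ratio of tags of genes of similar role and not a ratio of proteins. In NK or ILC-like cells Ccl4 was found more often in cells with Ccl3 than in cells without it. Among NK or ILC-like cells, 84.6% of ΔMAC and 73.5% of FL/FL cells with Ccl3 also had Ccl4, against 55.5% of ΔMAC and 39.8% of FL/FL cells without Ccl3. The cells with Ccl3 were slightly deeper, with a median of 5070 UMIs in ΔMAC and 5329.5 in FL/FL, against 4773 and 5032 in cells without it, and the part of depth in the joint detection was not tested.

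**Figure D3:**
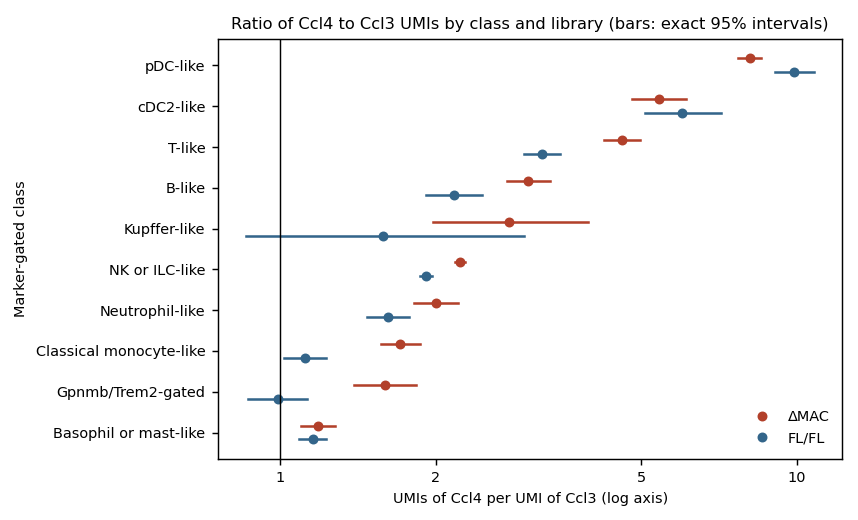
UMIs of Ccl4 per UMI of Ccl3 on a log axis for 10 gated classes (rows) in ΔMAC (upper point) and FL/FL (lower point), with exact 95% intervals. pDC-like cells stand at 8.10 and 9.88, and basophil or mast-like cells at 1.19 and 1.16.

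Ccl5 (RANTES), a ligand of Ccr1 made by cytotoxic lymphocytes, was the most abundant of the 9 genes, with 124972 UMIs in ΔMAC and 192029 in FL/FL. NK or ILC-like cells held 98262 of them in ΔMAC and 129669 in FL/FL. Their level was 8359.7 CPM in ΔMAC and 7858 CPM in FL/FL (ratio 1.06, 1.06 to 1.07), and 98.0% (97.3 to 98.5) of ΔMAC and 99.1% (98.7 to 99.4) of FL/FL cells had a UMI. So Ccl5 differed little between the libraries in the class where Ccl4 differed 2.09-fold. NK-like cells with S1pr5 or Cma1 had the most within the class, at 11219 CPM in ΔMAC and 11455 CPM in FL/FL.

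T-like cells had less Ccl5 in ΔMAC, at 1722 CPM against 3306 CPM in FL/FL, a ratio of 0.521 (0.512 to 0.530). A Ccl5 UMI was found in 59.4% (57.1 to 61.6) of ΔMAC and 70.9% (68.9 to 72.8) of FL/FL T-like cells, and after thinning in 30.4% and 40.4%. The difference appeared in each subclass compared. CD8 T-like cells without naive genes had 9541 CPM in ΔMAC and 17190.3 CPM in FL/FL (0.555, 0.536 to 0.575), CD8 T-like cells with naive genes had 1552 CPM in ΔMAC and 2526 CPM in FL/FL (0.614), and CD4 T-like cells had 567 CPM in ΔMAC and 2379 CPM in FL/FL (0.238, 0.213 to 0.266). In NKT-like T cells the level was 1229 CPM in ΔMAC and 1388 CPM in FL/FL (0.885, 0.816 to 0.959), while the share of cells with a UMI was 48.2% (38.8 to 57.8) in ΔMAC and 80.9% (75.9 to 85.3) in FL/FL. The mixture of T-like cells also differed: 935 of 1826 ΔMAC and 629 of 2167 FL/FL T-like cells were CD8 T-like cells with naive genes. Markers of NK cells were lower in ΔMAC T-like cells, with a summed 147 CPM in ΔMAC and 249 CPM in FL/FL, 5 of 6 lower and none at 0, and 8.76% of ΔMAC and 15.6% of FL/FL T-like cells had at least 2 of them. Most markers of other classes were lower in ΔMAC T-like cells too: all 6 of B, 5 of 6 of neutrophil and 5 of 6 of classical monocyte. Of the pDC markers and of the basophil or mast markers, 5 of 6 were higher. The part of any of these markers in the T-like Ccl5 difference was not tested.

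**Figure D4:**
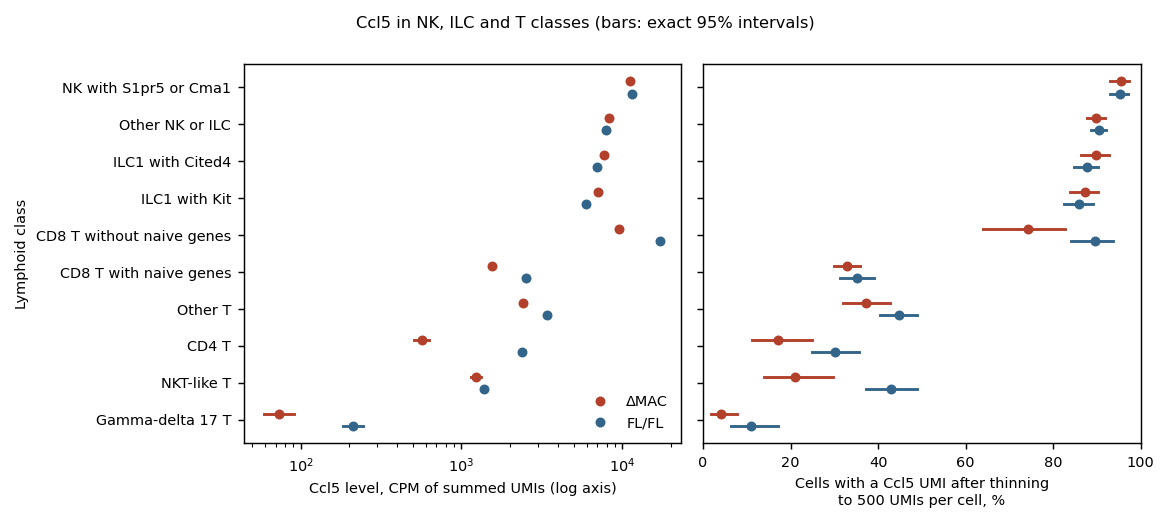
Ccl5 level on a log axis (left) and share of cells with a Ccl5 UMI after thinning to 500 UMIs per cell (right) in 10 NK, ILC and T classes (rows), ΔMAC above FL/FL, with exact 95% intervals. The ΔMAC point lies left of the FL/FL point in all 6 T classes in both panels, and NK or ILC classes lie at 5982 CPM or more in both libraries.

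Outside the lymphoid classes, mature dendritic-like cells, a type that carries antigen to lymph nodes, had 7879.6 CPM of Ccl5 in 19 ΔMAC cells and 5136 CPM in 52 FL/FL cells. A single ΔMAC cell held 439 of the 1087 ΔMAC UMIs. For comparison, B-like cells are not known as a main source of Ccl5, and 26.7% (24.9 to 28.5) of ΔMAC and 36.3% (34.3 to 38.4) of FL/FL cells had a Ccl5 UMI at 162 CPM in ΔMAC and 289 CPM in FL/FL. The highest single B-like cell held 106 of 1151 ΔMAC UMIs and 336 of 2231 FL/FL UMIs. Neutrophil-like cells had a UMI in 24.1% (21.0 to 27.4) of ΔMAC and 37.2% (33.7 to 40.9) of FL/FL cells, at median depths of 2363 and 2188 UMIs, with intervals that overlapped those of B-like cells. After thinning the shares were 7.69% in ΔMAC and 12.6% in FL/FL neutrophil-like cells, against 6.48% in ΔMAC and 7.81% in FL/FL B-like cells. The neutrophil-like level was 157 CPM in ΔMAC and 763 CPM in FL/FL (0.205, 0.180 to 0.234), the only Ccl5 pair past 2-fold among the 9 compared classes. Beside it, all 6 NK markers and all 5 T markers were lower in ΔMAC neutrophil-like cells, none at 0 in either library, at a summed 55.9 CPM and 64.8 CPM in ΔMAC against 134 CPM and 111 CPM in FL/FL. All 6 B markers were lower there too, while 4 of 6 classical monocyte and 4 of 6 pDC markers were higher in ΔMAC. When cells with at least 2 markers of a second class were left out, the neutrophil-like Ccl5 log2 ratio was -1.04 instead of -2.28.

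Ccl6 and Ccl9 are rodent chemokines of myeloid cells that act on Ccr1, and they are adjacent on chromosome 11, 9245 bases apart. They were divided among the myeloid classes in different ways. Ccl6 was highest, of the compared classes, in neutrophil-like cells, at 2746 CPM in 702 ΔMAC cells and 2330.3 CPM in 733 FL/FL cells (ratio 1.18, 1.13 to 1.23). It was detected in 91.9% (89.6 to 93.8) of ΔMAC and 88.3% (85.7 to 90.5) of FL/FL neutrophil-like cells, and in 68.4% and 61.0% after thinning, against 2.56% of ΔMAC and 4.04% of FL/FL B-like cells. Ccl9 had only 22.2 CPM in ΔMAC and 25.6 CPM in FL/FL neutrophil-like cells, against B-like levels of 8.46 CPM in ΔMAC and 20.6 CPM in FL/FL. The intervals of the 2 classes overlapped in FL/FL and did not in ΔMAC. So neutrophil-like cells carried 124 Ccl6 UMIs per Ccl9 UMI in ΔMAC (90.9 to 174) and 90.9 in FL/FL (68.0 to 124).

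In classical monocyte-like cells Ccl6 was at 896 CPM in ΔMAC and 913 CPM in FL/FL (0.981, 0.912 to 1.06) and Ccl9 at 447 CPM in ΔMAC and 497 CPM in FL/FL (0.899, 0.811 to 0.995), with 2.0 Ccl6 UMIs per Ccl9 UMI in ΔMAC and 1.84 in FL/FL. cDC2-like cells had more Ccl9 than Ccl6, with a Ccl6 to Ccl9 ratio of 0.554 in ΔMAC and 0.528 in FL/FL. Neither balance differed between the libraries beyond its counting interval. Kupffer-like cells had 1639.6 CPM of Ccl6 in ΔMAC and 1465 CPM in FL/FL (1.12, 0.932 to 1.35) but 14 ΔMAC against 39 FL/FL UMIs of Ccl9, at 83.2 CPM and 272 CPM (0.306, 0.153 to 0.576). Their Ccl6 to Ccl9 ratio was therefore 19.7 in ΔMAC (11.6 to 36.5) and 5.38 in FL/FL (3.81 to 7.79). The shares of Kupffer-like cells with a Ccl9 UMI were 11.4% (6.05 to 19.1) in ΔMAC and 16.8% (10.3 to 25.3) in FL/FL. The intervals of these shares overlapped, and the 5 highest FL/FL cells held 53.8% of the 39 UMIs. Ccl9 was lower in ΔMAC in all 7 classes in which it had 20 UMIs, but not under every setting. The neutrophil-like log2 ratio of -0.21 became 0.14 on centring on the median gene and 1.44 when the B-like level was subtracted. Thinning made the monocyte-like one 0.14, and leaving out cells passing 2 classes made the NK or ILC-like one 0.42. Ccl9 was at least 2-fold lower in Kupffer-like and B-like cells. The B-like Ccl9 values were 8.46 CPM in ΔMAC and 20.6 CPM in FL/FL, from 60 and 159 UMIs, and without cells passing 2 classes the log2 ratio there was -0.25. In cells of the Gpnmb and Trem2 gate, Ccl9 had 342 CPM in 19 ΔMAC cells and 667 CPM in 67 FL/FL cells, and in basophil or mast-like cells 1387 CPM in ΔMAC and 2137 CPM in FL/FL. Of the compared classes, Ccl6 was at least 2-fold lower in ΔMAC in 2 where it was rare, pDC-like cells with 13 ΔMAC and 18 FL/FL UMIs and endothelial-like cells with 3 and 17. The Gpnmb and Trem2 gate, too small to compare, had 193 CPM of Ccl6 in ΔMAC, from 52 UMIs, and 648 CPM in FL/FL, from 460 UMIs.

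**Figure D5:**
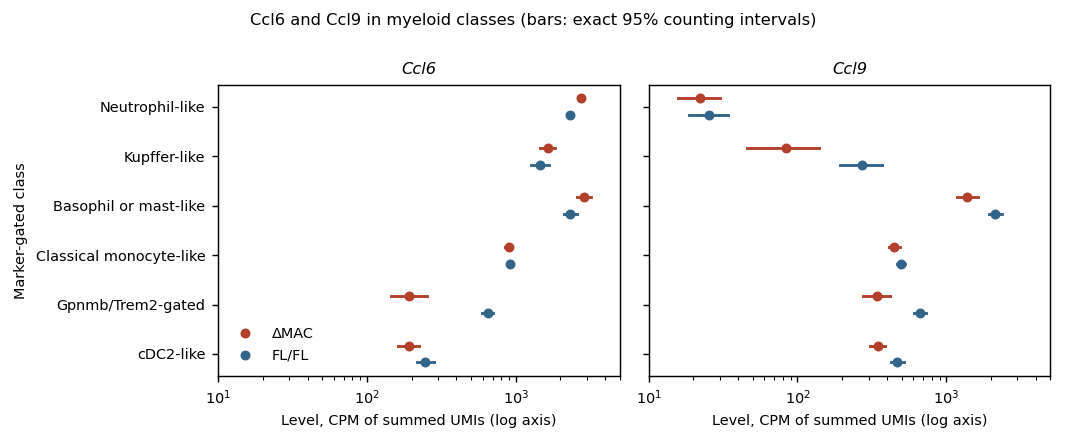
Ccl6 (left) and Ccl9 (right) levels on a log axis in 6 myeloid classes (rows), ΔMAC above FL/FL, with exact 95% counting intervals. Neutrophil-like cells are at 2746 and 2330.3 CPM of Ccl6 but at 22.2 and 25.6 CPM of Ccl9, and the Kupffer-like Ccl9 intervals do not overlap.

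The promoters of this adjacent pair are shown because the pair shares a locus and receptor but not its neutrophil-like level. RefSeq promoter sequences (GRCm38.p6, 250 bases before to 50 bases after the gene's start) were at hand for 4 of the 9 genes, Ccl3, Ccl6, Ccl9 and Ccl22. Both strands were searched for the TATA box as TATAAA. The same was done for AP-1, a factor of activated cells, as TGANTCA, in which N is any base. The myeloid factors C/EBP and PU.1 were searched for as TTGCNNCAA and GAGGAAGT. An NF-kB form and an interferon response form, both longer, are given by name. Both genes lie on the minus strand, and the sequences run 5′ to 3′ on it, at chr11:83593038-83593337 for Ccl6 and chr11:83578587-83578886 for Ccl9. Capitals mark matches.
Ccl6 promoter: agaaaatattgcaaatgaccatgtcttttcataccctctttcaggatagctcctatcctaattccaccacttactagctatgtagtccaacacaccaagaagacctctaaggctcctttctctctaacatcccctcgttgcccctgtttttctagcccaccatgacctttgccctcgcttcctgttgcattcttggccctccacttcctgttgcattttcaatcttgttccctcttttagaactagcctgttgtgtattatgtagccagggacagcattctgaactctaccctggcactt
Ccl9 promoter: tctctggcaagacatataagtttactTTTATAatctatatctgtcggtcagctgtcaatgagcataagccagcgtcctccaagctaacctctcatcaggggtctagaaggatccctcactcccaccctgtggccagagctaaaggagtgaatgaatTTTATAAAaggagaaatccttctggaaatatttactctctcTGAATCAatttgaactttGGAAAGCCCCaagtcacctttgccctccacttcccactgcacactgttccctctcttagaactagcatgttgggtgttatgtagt
Only the Ccl9 window had matches: TATAAA on its own strand starting 92 bases before the gene's start and on the opposite strand at 224 and 94 bases, those at 94 and 92 bases overlapping, TGANTCA at 53 bases and the NF-kB form on the opposite strand at 35 bases. Of 32851 mouse promoters of this length, 13.6% held TATAAA, 7.81% TGANTCA and 1.63% the NF-kB form, while 2.08% held TTGCNNCAA, 3.2% GAGGAAGT and 3.44% the interferon response form. A match is a description of letters in this window, and the lack of one in the other 3 windows says only that these letters are not there.

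Ccl2 (MCP-1) and Ccl7 (MCP-3), the ligands of Ccr2, were rare. Ccl2 had 607 UMIs in 124 ΔMAC cells and 406 UMIs in 123 FL/FL cells. Classical monocyte-like cells had 174 CPM in ΔMAC and 100.1 CPM in FL/FL (ratio 1.73, 1.43 to 2.10), and a UMI in 26.9% (20.1 to 34.6) of ΔMAC and 24.1% (19.0 to 29.9) of FL/FL cells. At most 0.289% of B-like cells in either library had a Ccl2 UMI. In Kupffer-like cells Ccl2 had 31 UMIs in 11 of 105 ΔMAC cells and 0 UMIs in 107 FL/FL cells. Against the limit that a count of 0 allows (3 UMIs in the FL/FL class, 20.9 CPM), the ΔMAC level of 184 CPM was at least 8.80-fold higher. The 5 highest cells held 71.0% of those 31 UMIs. Classical monocyte markers in Kupffer-like cells had a summed 380 CPM in ΔMAC and 321 CPM in FL/FL, 4 of 6 higher and 1 lower in ΔMAC. At least 2 of them were found in 3.81% of ΔMAC and 3.74% of FL/FL Kupffer-like cells. Their part in the Kupffer-like Ccl2 difference was not tested. In cDC2-like cells Ccl2 had 97 UMIs in 15 ΔMAC cells and 5 UMIs in 2 FL/FL cells (22.0, 9.12 to 69.3), in a class where 2.82% of genes were at least 2-fold higher. The 5 highest cells held 81.4% of those 97 UMIs. At least 2 of 6 classical monocyte markers were found in 73.4% of ΔMAC and 80% of FL/FL cDC2-like cells, at a summed 951 CPM in ΔMAC and 1286 CPM in FL/FL, with Vcan and Chil3 at 0 in both. Their part in the Ccl2 difference was not tested, and the gate of at least 3 markers and the one without cells passing 2 classes gave the pair no value. So Ccl2 was detected in ΔMAC Kupffer-like cells and not in FL/FL ones, while the intervals of the monocyte-like shares overlapped. The cells of the Gpnmb and Trem2 gate had 42 ΔMAC UMIs, 31 in 1 cell, and 37 FL/FL UMIs, 28 in 1 cell. The count for B-like cells, 44 ΔMAC and 4 FL/FL UMIs, had 35 UMIs in 1 ΔMAC cell, and that for NK or ILC-like cells, 41 ΔMAC and 27 FL/FL UMIs, had 21 in 1 ΔMAC cell. Without the highest cell of each library the NK or ILC-like log2 ratio was 0.42 instead of 1.09, and the B-like pair no longer reached 20 UMIs. The B-like and NK or ILC-like Ccl2 differences thus rest on single cells.

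Ccl7 had 37 UMIs in 14 ΔMAC cells and 4 UMIs in 4 FL/FL cells, too few in any compared class for the 20-UMI minimum. Kupffer-like cells had 8 ΔMAC UMIs in 6 cells and 0 FL/FL UMIs, and a single ΔMAC cell of the Gpnmb and Trem2 gate had 9. The other ΔMAC UMIs lay in classical monocyte-like, cDC1-like, cDC2-like, stromal-like and unassigned cells. No ratio is given for it.

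Ccl24 (eotaxin-2), which draws eosinophils, belonged to Kupffer-like cells among the compared classes. It was at 725 CPM in ΔMAC, from 122 UMIs, and at 342 CPM in FL/FL, from 49 UMIs, a ratio of 2.12 (1.51 to 3.02); with a minimum of 500 genes per cell the log2 ratio was 0.90, under 2-fold. The share of Kupffer-like cells with a UMI was 54.3% (44.3 to 64.0) in ΔMAC and 29.9% (21.4 to 39.5) in FL/FL, and 28.6% and 13.1% after thinning, with class depths of 1067 and 1070 UMIs. The intervals of the unthinned shares did not overlap, and the share in B-like cells was 0.165% in ΔMAC and 0.136% in FL/FL. The 5 highest cells held 21.3% of the UMIs in ΔMAC and 32.7% in FL/FL, so unlike Ccl4 in the same class the level was spread over many cells. Classical monocyte-like cells had 12 ΔMAC and 24 FL/FL UMIs, and the cells of the Gpnmb and Trem2 gate had 100.4 CPM in ΔMAC and 74.6 CPM in FL/FL. Over all cells the direction was the other way, with 205 ΔMAC and 430 FL/FL UMIs (0.590, 0.497 to 0.699), and 1 unassigned FL/FL cell held 267 of the 430; without the highest cell of each library the ratio was 1.46 (1.18 to 1.81).

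Ccl22 (MDC), the Ccr4 ligand of mature dendritic cells, was at 420.4 CPM in 19 ΔMAC mature dendritic-like cells, from 58 UMIs, and at 312 CPM in 52 FL/FL cells, from 111 UMIs. The intervals of 319 to 544 CPM in ΔMAC and 257 to 376 CPM in FL/FL overlapped. The compared classes reached at most 16.2 CPM in ΔMAC, in cDC2-like cells, and 11.6 CPM in FL/FL, in classical monocyte-like cells, and the B-like pair past 2-fold rested on 6 ΔMAC and 18 FL/FL UMIs (0.363, 0.118 to 0.954); with the mean of the cells' own CPM its log2 ratio was -0.17, under 2-fold.

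Likeness between genes was described over 36 points, the 18 finest classes in each library, as Pearson's r of log2(CPM + 10) among 10365 genes with at least 200 UMIs. These points share library, depth and lineage, and cells of 1 library are not replicates, so no p is given. Ccl3 and Ccl4 were each other's nearest gene (r = 0.92). The nearest genes of Ccl5 were Nkg7, a cytotoxic granule protein (0.96), Samd3 (0.94) and Ifng, interferon gamma (0.93). Ccl6 was nearest to Lst1 (0.99), Igsf6 (0.98) and Tnfaip2 (0.97), and its neighbour Ccl9 to Slamf8 (0.96), Clec4a1 (0.95) and the lipoprotein receptor gene Lrp1 (0.94), while r between Ccl6 and Ccl9 was 0.68. Ccl24 was nearest to Fabp7 (0.98), the scavenger receptor gene Marco (0.97) and Igf1 (0.97), and Marco is also a marker of the Kupffer gate. Ccl24 was at 725 CPM in ΔMAC and 342 CPM in FL/FL Kupffer-like cells, but at most 10.7 CPM in the other classes used. Its r therefore rests mostly on the Kupffer-like points. Ccl2 was nearest to Il6, the cytokine interleukin 6 (0.89), Tmem51 (0.79) and Ifi205 (0.79). Ccl7 and Ccl22 had fewer than 200 UMIs in these classes and were not placed.

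The rest of the family was counted in the same way, with no test of a difference from the 9 genes. Of 11 other CC ligands, 13 gene and class pairs had at least 20 UMIs, of which 3 were at least 2-fold higher and 1 at least 2-fold lower in ΔMAC, with a median log2 ratio of -0.12. Of 14 CC receptors, 45 pairs did, of which 2 were at least 2-fold higher and 5 at least 2-fold lower, with a median of -0.24. Over all genes, 1.98% of pairs were higher and 4.45% lower. Only 4 of the other ligands reached 100 UMIs: Ccl25, Ccl27a, Ccl1 and Ccl17. Ccl17, the second Ccr4 ligand, had 37 ΔMAC and 2 FL/FL UMIs in cDC2-like cells (21.0-fold), and Ccl1, a Ccr8 ligand, had 149 ΔMAC and 65 FL/FL UMIs in NK or ILC-like cells (3.22-fold) but 5 and 114 in T-like cells (0.0508). Ccl27a is listed on several rows for near-identical copies, which were summed and are uncertain.

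Over both libraries together, Ccr1 and Ccr2 were each highest in a class that was also the highest compared class of a ligand. Ccr1, bound by Ccl3, Ccl5, Ccl6 and Ccl9, was highest in neutrophil-like cells at 890.0 CPM, where Ccl6 was highest. Ccr2, bound by Ccl2 and Ccl7, was highest in classical monocyte-like cells at 697 CPM, where Ccl2 was highest. Ccr2 is also a marker of the classical monocyte gate, so its place there was fixed in part by the gating. Ccr4, bound by Ccl22, was highest in T-like cells at 10.3 CPM. Ccrl2, an atypical receptor that binds chemerin, was highest in neutrophil-like cells, at 516 CPM in ΔMAC and 1080 CPM in FL/FL (0.478).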

How the data were processed

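Both libraries were 10x Chromium 3' libraries, per the labels' protocols. The deposited values are raw UMI counts for each gene in each barcode. Per the file headers the counts come from Cell Ranger 6.0.0, and the submitters' processing notes name mm10 and Seurat 4.3.0. No barcode had fewer than 502 UMIs, so barcodes had been filtered before deposit by a rule not given in the sources used here. The ΔMAC library had 8949 barcodes and 43134027 UMIs, and the FL/FL library 10054 barcodes and 54519921 UMIs; 17 barcode sequences occur in both.

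The filter (300 genes or more, mitochondrial UMIs below 20%) took out 72 ΔMAC and 64 FL/FL barcodes. Scrublet (scanpy 1.11.5, expected rate 0.08) then removed 330 ΔMAC and 461 FL/FL doublet calls. A cell took the class with the most detected markers, at least 2 and at least 1 more than the next class, and 6.15% of ΔMAC and 7.58% of FL/FL cells stayed unassigned. Of 102 markers, Trac was not in the files. Free RNA was not subtracted, and the shares in B-like cells stand beside the shares reported. UMIs were summed per class and library (Python 3.11.15, scipy 1.17.1). A pair was called at 2-fold where the class had 50 cells in each library and the gene 20 UMIs; such pairs were named, and pairs below these minimums are given as counts or as values of small classes. Thinning drew 500 UMIs per cell. The ratio and its interval were tested on simulated data. A gene's 3 most alike genes were named by r. The members, the gene lists and the markers were chosen with earlier results of these data known. Single values of some listed genes are not reported here. Positions are from GENCODE M21 (mm10), and all 9 gene IDs matched the files.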

Additional observations from a re-analysis of the deposited data

Results flagged for a closer look

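A large part of Ccl22 and Ccl24 lay in cells that the marker gate left without a class, which no comparison above uses. Unassigned cells held 45.9% of the ΔMAC library's 244 Ccl22 UMIs and 48.4% of the FL/FL library's 450, although they made up 6.15% of ΔMAC and 7.58% of FL/FL cells. The highest such cell carried 86 Ccl22 UMIs in ΔMAC, with 4 T and 4 mature dendritic markers detected, and 108 in FL/FL, with 2 markers each of the non-classical monocyte, Gpnmb and Trem2 and mature dendritic gates. For Ccl24, unassigned cells held 66.0% of the FL/FL library's 430 UMIs. Of these, 267 were in 1 FL/FL cell of 23569 UMIs with 5 T and 5 Gpnmb and Trem2 gate markers detected. Whether these cells are doublets that Scrublet did not call was not tested.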

How the results depend on the processing

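The 54 log2 ratios and the counts past 2-fold were recomputed under 10 planned settings and 1 chosen after seeing the data. Against 13 pairs higher and 6 lower in ΔMAC, a gate of at least 3 markers and 2 more than the next class gave 6 higher, of 41 pairs left. Of the 12 pairs past 2-fold that this gate kept, 9 stayed past it. Leaving out cells that pass 2 classes gave 5 higher and 3 lower, of 33 pairs left. Thinning to 500 UMIs gave 6 higher and 1 lower, of 30 pairs left. Subtracting the B-like level left 31 pairs, 1 of them lower, and all 10 pairs past 2-fold that it kept stayed past it. A minimum of 50 UMIs left 44 pairs, 3 of them lower, and all 13 pairs past 2-fold that it kept stayed past it. Fewer pairs were left in each of these. The mean of the cells' own CPM kept 53 pairs and gave 9 higher and 5 lower, but only 13 of the 18 pairs past 2-fold that it kept stayed past it; Ccl4, Ccl9 and Ccl22 in B-like, Ccl2 in NK or ILC-like and Ccl3 in Kupffer-like cells did not. No pair past 2-fold changed direction in any setting that gave it a value. Ccl4 stayed at least 2-fold higher in all 11 settings in NK or ILC-like, classical monocyte-like and Kupffer-like cells, and Ccl24 in Kupffer-like cells in 9 of 11. Ccl4 in B-like cells ranged from 0.44 to 1.29 on the log2 scale. Ccl4 in T-like cells turned to -0.51 when the B-like level was subtracted. Without the highest cell of each class and library, the setting chosen after seeing the data, 10 pairs were higher and 5 lower. The leading class stayed the same for at least 7 of 9 genes in every setting where it was recomputed. Kupffer-like cells had a median of 1067 UMIs in ΔMAC and 1070 in FL/FL, so a rare gene there may be missed. No paired analysis was possible because each genotype has 1 library, so the shared replicate number 1 pairs nothing beyond the comparison itself.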
